A study of Arabidopsis thaliana with 15 samples.

Results

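The 62 genes described here are the nuclear genes of Arabidopsis thaliana whose mean level in seedlings given 100 µM cercosporin was far below the mean over all other libraries of the experiment. They were selected on the authors' normalised counts, which are read counts divided by 1 size factor per library. A gene qualified when its mean over the 12 libraries other than 100 µM was 20 or more and when that mean plus 2, divided by its mean at 100 µM plus 2, was 5 or more. Of the 14190 genes in the table, 6864 were nuclear and met the minimum of 20, and 62 of those passed the ratio. The drop at 100 µM is therefore what chose the genes, and every value of that contrast is given as a description with no test.

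RNA was measured by bulk MARS-seq, a protocol that counts reads near the 3′ end of transcripts, in whole seedlings of the Col-0 ecotype aged 2 weeks. The 15 libraries formed 5 groups of 3: controls given no agent, and seedlings given cercosporin, a toxin of Cercospora fungi that light activates, at 0.1, 1, 10 or 100 µM. Treated seedlings spent 1 h in the toxin in darkness, had 3 washes and then received 30 min of light at 30 µE, whereas the control plates were kept lit throughout. Toxin and light regime are thus joined in each comparison with the controls, while the doses share 1 regime. Whether replicates were separate cultures is not stated, and the p-values therefore cover the spread among these libraries, possibly a technical one. In whole seedlings, a loss of cells of 1 type and a loss of RNA per cell cannot be told apart.

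AP2/ERF proteins, the largest family among the regulators of this set, are plant transcription factors. Their DREB branch is known from cold, drought and salt responses, and their ERF branch from ethylene, jasmonate and wounding responses. Many genes of the family are switched on within minutes of a stimulus, and their transcripts are short-lived. The growing cell wall, from which the largest class of the set comes, is loosened by expansins, has its xyloglucan cut and rejoined by xyloglucan endotransglucosylases, and carries arabinogalactan proteins and extensins at the cell surface. Jasmonate synthesis starts in the plastid, where 13-lipoxygenases such as LOX3 and LOX4 oxidise linolenic acid.

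By annotated role, the 62 genes fell into 19 cell wall genes, 10 AP2/ERF factors, 13 other regulators and signalling proteins, 2 jasmonate synthesis genes, 4 stress and defence proteins, 6 genes of metabolism and transport, 3 of the ribosome or cytoskeleton and 5 with no known role. The ratio that selected them ran from 5.02 to 24.0 with a median of 6.39. In 59 of the 62 genes all 3 libraries of 100 µM lay below all 12 others, a property of 14.2% of the 6864 nuclear genes above the same minimum. The 3 exceptions were AT2G07870, PAP28 and AT4G14320. The genes just inside the ratio were AT1G78230 at 5.02, AT2G32200 at 5.11 and AT5G62340 at 5.19, and those just outside were AT1G74330 at 4.92, AT1G59970 at 4.95 and the arabinogalactan protein gene AGP1 at 4.97. The set has no sharp edge at that point.

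Together the 62 genes took between 1.03% and 1.10% of all counts in a control library. With cercosporin the share was between 0.837% and 0.914% (0.1 µM), between 0.711% and 0.763% (1 µM), between 0.936% and 1.03% (10 µM) and between 0.125% and 0.152% (100 µM). The 5 ranges did not overlap, although the highest 10 µM library nearly met the lowest control. Library totals lay between 834190 counts (1 µM replicate 2) and 4554702 counts (10 µM replicate 3), and between 1044626 and 2922199 at 100 µM. At that depth 3 counts correspond to 2.13 to 6.29 normalised counts in the 100 µM libraries, a floor for counting error only, so low values there are imprecise. In 10 genes at least 1 library of 100 µM had 0 counts, and in 2 of them, AT2G07870 and PAP28, all 3 did. Summed over the 5 shoot markers, which are photosynthesis genes, normalised counts were 54355 to 76703 in the controls and 36458 to 64795 at 100 µM; the 9 root markers summed to 384 to 520 and to 325 to 763, and no marker stood at 0. The part of these shifts in the results was not tested.

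**Figure D1:**
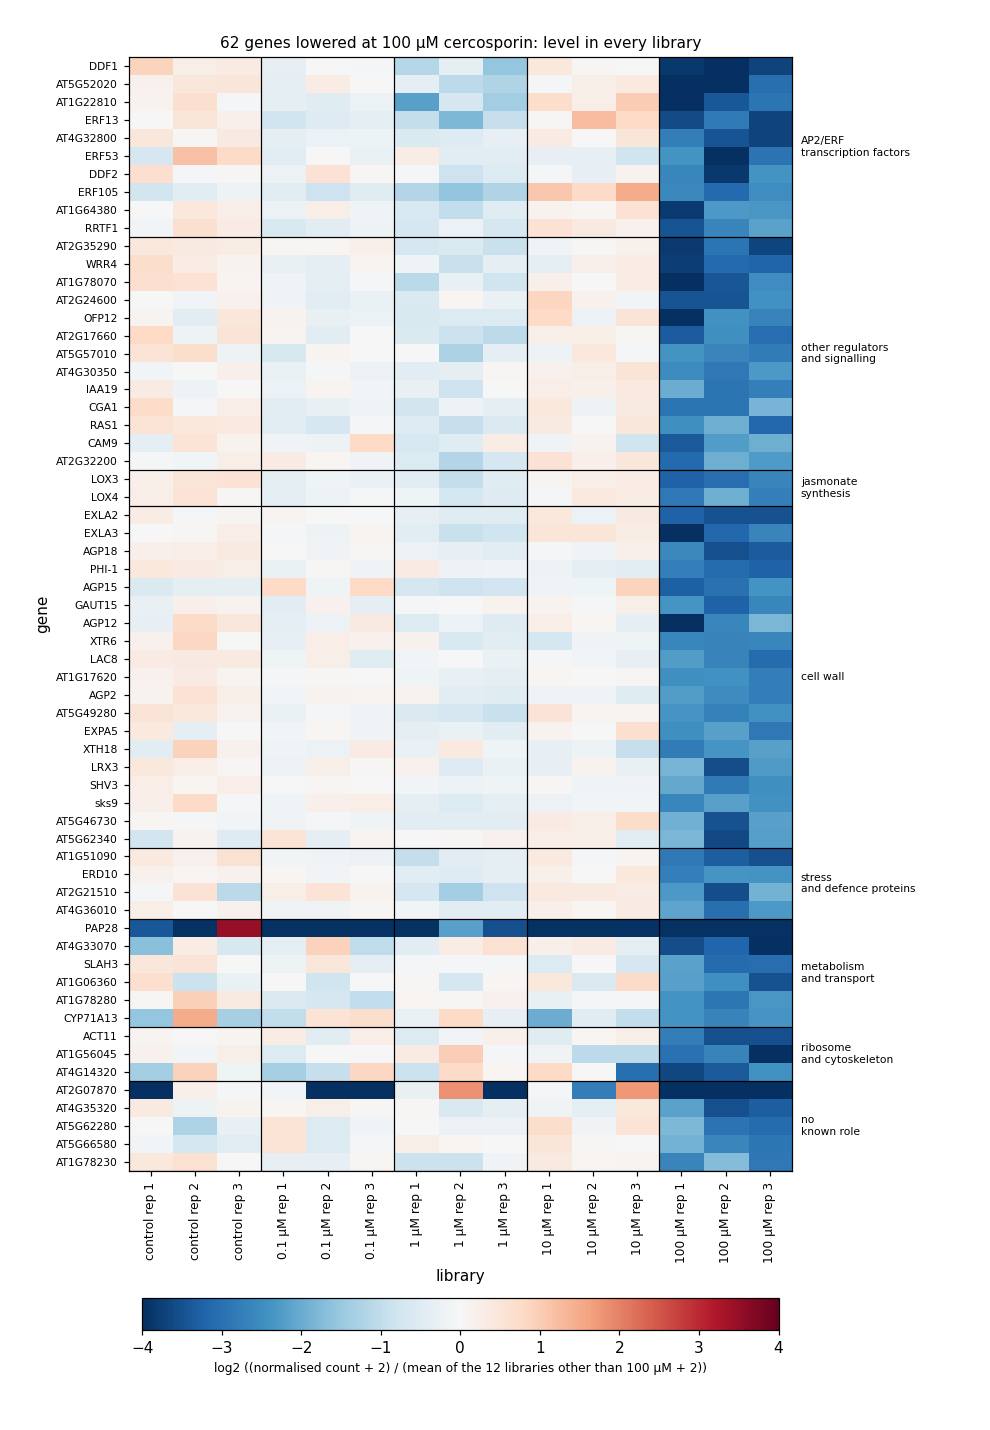
Heat map of the 62 genes (rows, ordered by class and then by ratio) in the 15 libraries (columns); colour is the log2 ratio of the normalised count plus 2 to the mean of the 12 libraries other than 100 µM plus 2, and colours saturate at 4 in either direction. The 100 µM columns are blue because the genes were chosen for it; among the other columns, the 1 µM columns are pale blue for most AP2/ERF factors and regulators, and PAP28 is red in control replicate 3 alone.

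Among features that the selection did not use, 10 short promoter motifs were counted, and CGCGTT showed the largest ratio of frequencies. This rapid stress response element is known from genes induced within minutes of wounding, and calmodulin-binding CAMTA factors bind sequences of this kind. Reading the 300 bases upstream of each gene start on both strands in the RefSeq annotation of TAIR10.1, 11 of the 62 genes held it, or 17.7%, against 3.31% of the other 6802 genes above the same minimum. The 11 genes held 12 copies, placed 21 to 281 bases before the annotated start. The genes comprised 6 cell wall genes, 2 AP2/ERF factors, 1 other regulator and 2 further genes, LOX4 and PAP28. The windows of PAP28 and of the cell wall gene GAUT15 overlap a neighbouring gene. Such windows were not left out, among the members or the other genes. All 62 genes were found in that annotation by identifier, while the build used for the counts is not given. The windows below show the element in members of the AP2/ERF, cell wall and jasmonate classes, each read on the strand of its gene, with the element or its reverse complement AACGCG in capitals:
DDF2 (chr1:23368452-23368511, minus strand): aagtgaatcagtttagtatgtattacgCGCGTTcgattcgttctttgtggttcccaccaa
AT4G32800 (chr4:15819332-15819391, plus strand): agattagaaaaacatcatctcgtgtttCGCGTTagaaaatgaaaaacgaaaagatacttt
EXLA3, first copy (chr3:16892531-16892590, plus strand): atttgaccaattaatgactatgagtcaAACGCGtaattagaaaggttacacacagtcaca
EXLA3, second copy (chr3:16892595-16892654, plus strand): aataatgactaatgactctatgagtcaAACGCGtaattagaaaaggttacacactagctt
XTH18 (chr4:14827255-14827314, minus strand): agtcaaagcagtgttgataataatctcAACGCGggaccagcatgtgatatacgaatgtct
PHI-1 (chr1:12851856-12851915, plus strand): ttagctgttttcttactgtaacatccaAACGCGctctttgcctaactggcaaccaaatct
LOX4 (chr1:27308307-27308366, plus strand): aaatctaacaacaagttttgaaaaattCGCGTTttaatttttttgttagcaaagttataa

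The expansin-like gene EXLA3 was the member with a second copy. Its copies lay 64 bases apart inside a repeated stretch, in which 26 bases in a row were identical. A match of these letters describes the sequence and does not show that a factor binds there.

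The other 9 motifs were counted in the same windows. The DRE core CCGAC, bound by DREB factors, was upstream of 21.0% of the members and 14.9% of the other genes, the ABRE core ACGTG of 33.9% and 26.96%, and the W-box core TTGAC of 53.2% and 50.2%. The longer W-box TTGACC, which contains that core, was found in 19.4% and 13.5%. The related CAMTA core ACGCGT, which can overlap CGCGTT by 5 letters, occurred in 6.45% and 2.60%. The site II element TGGGCC, known from genes of growth and protein synthesis, was rarer among the members, at 6.45% against 18.3%. The GCC-box GCCGCC, the classical target of ERF factors, was in 1.61% and 2.41%, the auxin response element TGTCTC in 8.06% and 11.8%, and the G-box CACGTG in 6.45% and 8.06%.

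The members were also compact genes. A single exon made up 26 of the 62, or 41.9%, against 17.7% of the other 6802 genes. All 10 AP2/ERF genes and 9 of the 19 cell wall genes had 1 exon. The median transcript length was 1356 bases against 1752, and the median protein length 268 residues against 370. The members lay on all 5 chromosomes, with 18 genes on chromosome 1, 10 on 2, 7 on 3, 15 on 4 and 12 on 5. EXLA2 and the SKU5-like gene sks9 were the closest pair, with 3 genes between them.

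**Figure D2:**
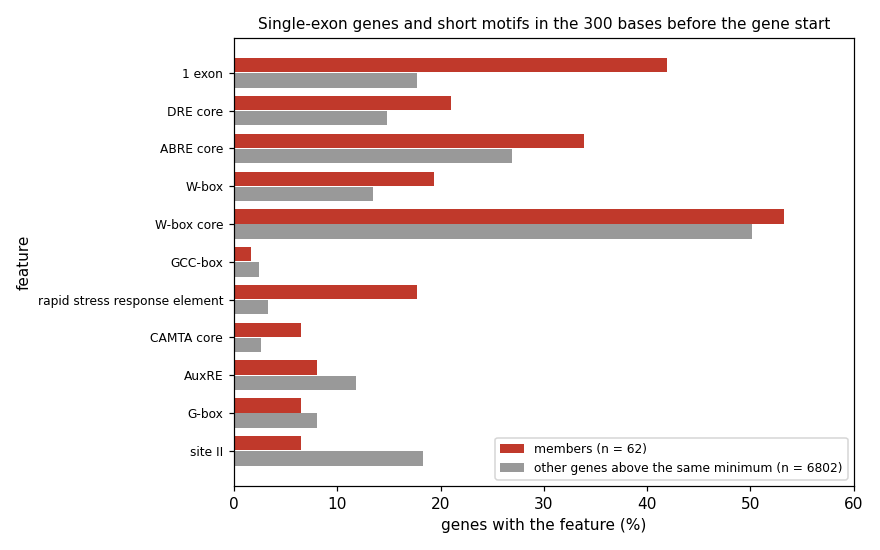
Bars give the percentage of genes with 1 exon and with each of 10 short motifs in the 300 bases before the gene start, on either strand, for the 62 members (red) and the other 6802 nuclear genes above the same minimum (grey). The largest gaps are for 1 exon (41.9% against 17.7%), the rapid stress response element (17.7% against 3.31%) and site II (6.45% against 18.3%).

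Among the 10 AP2/ERF factors, DDF1, DDF2, AT5G52020, AT4G32800, AT1G22810 and AT1G64380 were annotated here as DREB-type. The branch of ERF53 was not assigned here, so the DREB-type genes named may not be all of them. ERF53 is known as a drought-induced factor, RRTF1 as a redox-responsive one, and ERF105 (AT5G51190) from cold and cytokinin responses; ERF13 is the tenth. DDF1, which lowers gibberellin content when overexpressed, had normalised counts of 199.6, 125 and 134 in the controls, 84.8, 108 and 104 at 0.1 µM, 46.9, 83.1 and 35.5 at 1 µM, 144, 110.1 and 107 at 10 µM, and 5.48, 0 and 6.40 at 100 µM. Its relative AT5G52020, of the TINY subfamily, had 36.1, 43.5 and 44.9 in the controls, 24.2, 39.5 and 30.9 at 0.1 µM, 23.4, 14.3 and 12.5 at 1 µM, 30.2, 37.9 and 41.6 at 10 µM, and 0, 0 and 2.13 at 100 µM. AT1G22810, a DREB factor of subfamily A-5, had 68.4, 99.1 and 58.4 in the controls, 47.2, 43.5 and 52.3 at 0.1 µM, 12.3, 38.01 and 22.4 at 1 µM, 102, 75.9 and 128 at 10 µM, and 1.37, 4.19 and 6.40 at 100 µM. In all 3 genes the 100 µM libraries were at the bottom without overlap, and the 1 µM libraries were the next lowest, every one below every control.

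ERF13 had normalised counts of 70.3, 99.1 and 82.03 in the controls, 39.98, 49.04 and 53.9 at 0.1 µM, 35.8, 19 and 36.2 at 1 µM, 73.5, 168 and 125 at 10 µM, and 4.11, 8.38 and 3.55 at 100 µM. AT4G32800, also of the TINY subfamily, had 248, 185 and 233 in the controls, 139, 153 and 154 at 0.1 µM, 119.7, 126 and 142 at 1 µM, 228, 179 and 251 at 10 µM, and 24.7, 14.67 and 12.1 at 100 µM. AT1G64380, of the RAP2.4 subfamily, had 139.7, 191 and 172 in the controls, 119, 171 and 125 at 0.1 µM, 92.5, 71.3 and 100.0 at 1 µM, 155, 149 and 213 at 10 µM, and 8.22, 27.2 and 26.3 at 100 µM. The order of the group means was the same in ERF13 and AT1G64380, with 10 µM highest, then control, 0.1 µM, 1 µM and 100 µM; AT4G32800 differed in that the control mean was above that of 10 µM, with overlapping libraries. ERF105 had normalised counts of 74.2, 90.7 and 109 in the controls, 91.5, 68.8 and 87.9 at 0.1 µM, 54.3, 40.4 and 52.7 at 1 µM, 264, 212 and 348 at 10 µM, and 19.2, 12.6 and 20.6 at 100 µM. Its 10 µM libraries were above all others, with means of 274 ± 69.1 (SD, n = 3) at 10 µM, 91.3 ± 17.4 (SD, n = 3) in the controls, 49.1 ± 7.60 (SD, n = 3) at 1 µM and 17.5 ± 4.29 (SD, n = 3) at 100 µM. The lowest and the highest level of ERF105 were thus at neighbouring doses. DDF2, ERF53 and RRTF1 were selected with ratios of 7.08, 7.81 and 6.27.

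**Figure D3:**
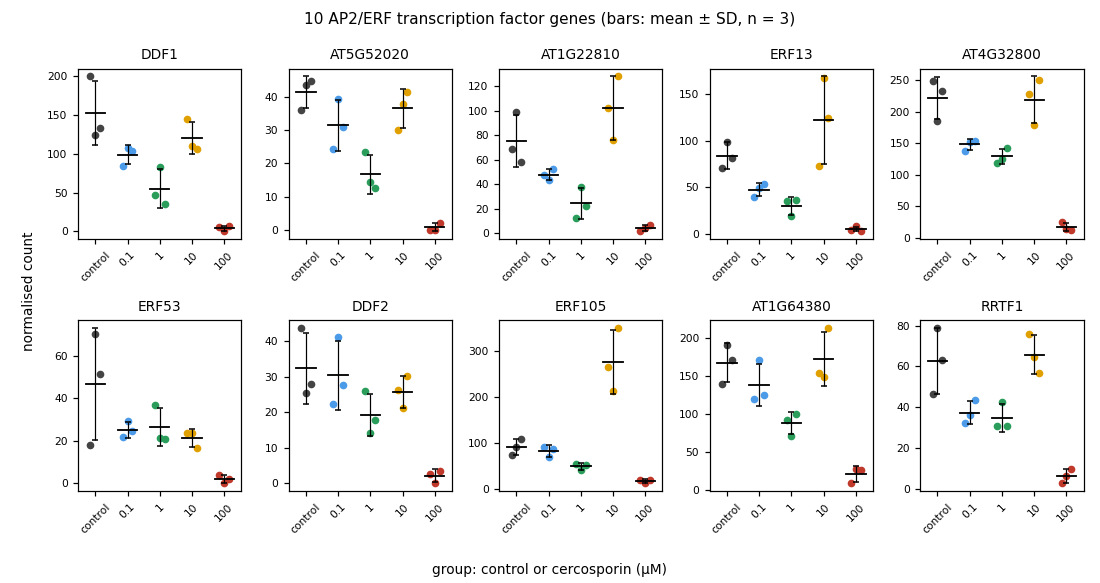
Normalised counts of the 10 AP2/ERF genes by group, with 1 point per library, the mean as a line and the SD (n = 3) as a bar; each panel has its own axis. The 100 µM points lie below all others in each of the 10 panels, 1 µM has the lowest mean of the remaining groups in 9, and the 10 µM points of ERF105, 211.5 to 348, lie above all other libraries.

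The 13 other regulators were led by AT2G35290, listed with the auxin-gene synonym SAUR79, which had normalised counts of 630.3, 609 and 575 in the controls, 489, 504 and 546 at 0.1 µM, 297, 318 and 253 at 1 µM, 428, 488 and 529.8 at 10 µM, and 31.5, 60.8 and 35.5 at 100 µM. WRR4, an immune receptor of the TIR-NB-LRR type known for resistance to white rust, had 321, 239 and 217 in the controls, 158, 150.3 and 209.9 at 0.1 µM, 173, 105 and 147 at 1 µM, 152, 225 and 242 at 10 µM, and 12.3, 20.95 and 19.2 at 100 µM. The WD40 repeat gene AT1G78070 had 105, 97.9 and 69.7 in the controls, 58.1, 49.04 and 61.8 at 0.1 µM, 29.6, 52.3 and 36.9 at 1 µM, 74.8, 65.9 and 80.00 at 10 µM, and 0, 4.19 and 9.95 at 100 µM. In all 3 genes every 1 µM library was below every control, and every 100 µM library was below the rest. The ankyrin repeat gene AT2G24600 had 112, 102 and 126 in the controls, 99.3, 83.1 and 92.7 at 0.1 µM, 74.03, 116 and 92.8 at 1 µM, 203, 126 and 102 at 10 µM, and 8.22, 8.38 and 19.2 at 100 µM; its 1 µM libraries overlapped the controls. AT2G32200, encoding a short cysteine-rich membrane protein, had 57.99, 56.8 and 73.04 in the controls, 77.5, 65.7 and 56.2 at 0.1 µM, 41.95, 26.1 and 38.2 at 1 µM, 93.1, 71.5 and 85.5 at 10 µM, and 5.48, 14.67 and 11.4 at 100 µM, with all 1 µM libraries below those of the other groups except 100 µM. The remaining 8 were the auxin repressor IAA19, the GATA factor CGA1 of chloroplast development, the repressor OFP12, the SMAX1-like protein gene AT4G30350, the calmodulin CAM9, a calmodulin-binding protein (AT5G57010), a RIN4 family protein (AT2G17660) and RAS1 of the abscisic acid and salt response. Over the 13 genes the ratio ran from 5.11 to 10.6.

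The jasmonate genes LOX3 and LOX4 are 2 of the 13-lipoxygenases of the plastid. LOX3 had normalised counts of 317, 383 and 414 in the controls, 212, 244 and 229.7 at 0.1 µM, 207, 140.2 and 198 at 1 µM, 296, 325 and 341 at 10 µM, and 27.4, 31.4 and 42.7 at 100 µM. LOX4, with a ratio of 5.53, had 185, 225 and 159.6 in the controls, 116, 134 and 145 at 0.1 µM, 134, 92.6 and 106 at 1 µM, 149.5, 202 and 190.2 at 10 µM, and 19.2, 37.7 and 21.3 at 100 µM. In LOX3 every library of 0.1 and of 1 µM was below every control; in LOX4 all values at 0.1 and 1 µM were also below the lowest control, and those at 10 µM overlapped the controls.

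The 19 cell wall genes had ratios between 5.19 and 10.5. EXLA2, an expansin-like gene, had normalised counts of 337, 269.6 and 296 in the controls, 297, 272 and 278 at 0.1 µM, 218, 195 and 195 at 1 µM, 367, 235 and 352 at 10 µM, and 27.4, 23.05 and 22.8 at 100 µM. Its family member EXLA3 had 106, 111 and 128 in the controls, 104, 92.5 and 116 at 0.1 µM, 78.97, 57.01 and 61.2 at 1 µM, 149.5, 149.9 and 133 at 10 µM, and 2.74, 10.5 and 15.6 at 100 µM. In both genes the 1 µM libraries were below all those of control, 0.1 and 10 µM. The 3 wall genes with the largest normalised counts were LRX3, AGP2 and AGP18. LRX3, a leucine-rich repeat extensin of wall sensing, had 3515, 3185 and 2691 in the controls, 2216, 3105 and 2715 at 0.1 µM, 2942, 1834 and 2185 at 1 µM, 2071, 2862 and 2153 at 10 µM, and 714, 224 and 542 at 100 µM. AGP2 had 1166, 1575 and 1246 in the controls, 985, 1156 and 1142 at 0.1 µM, 1166, 793 and 761 at 1 µM, 968, 963 and 759 at 10 µM, and 223, 184 and 155 at 100 µM, and AGP18 had 999, 1051 and 1102 in the controls, 869, 779 and 895 at 0.1 µM, 737, 682 and 640.4 at 1 µM, 830.3, 791 and 998 at 10 µM, and 142, 73.3 and 84.6 at 100 µM. LRX3 overlapped among control, 0.1, 1 and 10 µM. Every AGP2 library of 0.1, 1 and 10 µM was below every control, although 1 µM replicate 1, at 1166.02, nearly met control replicate 1, at 1166.44. The 1 µM libraries of AGP2 overlapped those of 0.1 and 10 µM. AGP18 at 1 µM was below every library of control, 0.1 and 10 µM. AT5G49280, a hydroxyproline-rich glycoprotein, had 498, 466 and 389 in the controls, 291, 342 and 314 at 0.1 µM, 236, 221 and 186 at 1 µM, 499.8, 377 and 374 at 10 µM, and 67.1, 52.4 and 63.99 at 100 µM, again with 1 µM separate from, and below, the controls, 0.1 and 10 µM.

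The other 13 wall genes were the expansin EXPA5, the xyloglucan endotransglucosylases XTR6 and XTH18, the arabinogalactan peptides AGP12 and AGP15, the GPI-anchored protein gene SHV3, the galacturonosyltransferase GAUT15, sks9, the laccase LAC8, PHI-1, and AT1G17620, AT5G46730 and AT5G62340. Their ratios ran from 5.19 in AT5G62340 to 8.004 in PHI-1. AGP15 differed from most: its controls had 19.96 to 23.6, whereas the highest libraries of 0.1 and 10 µM reached 55.5 and 58.5.

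**Figure D4:**
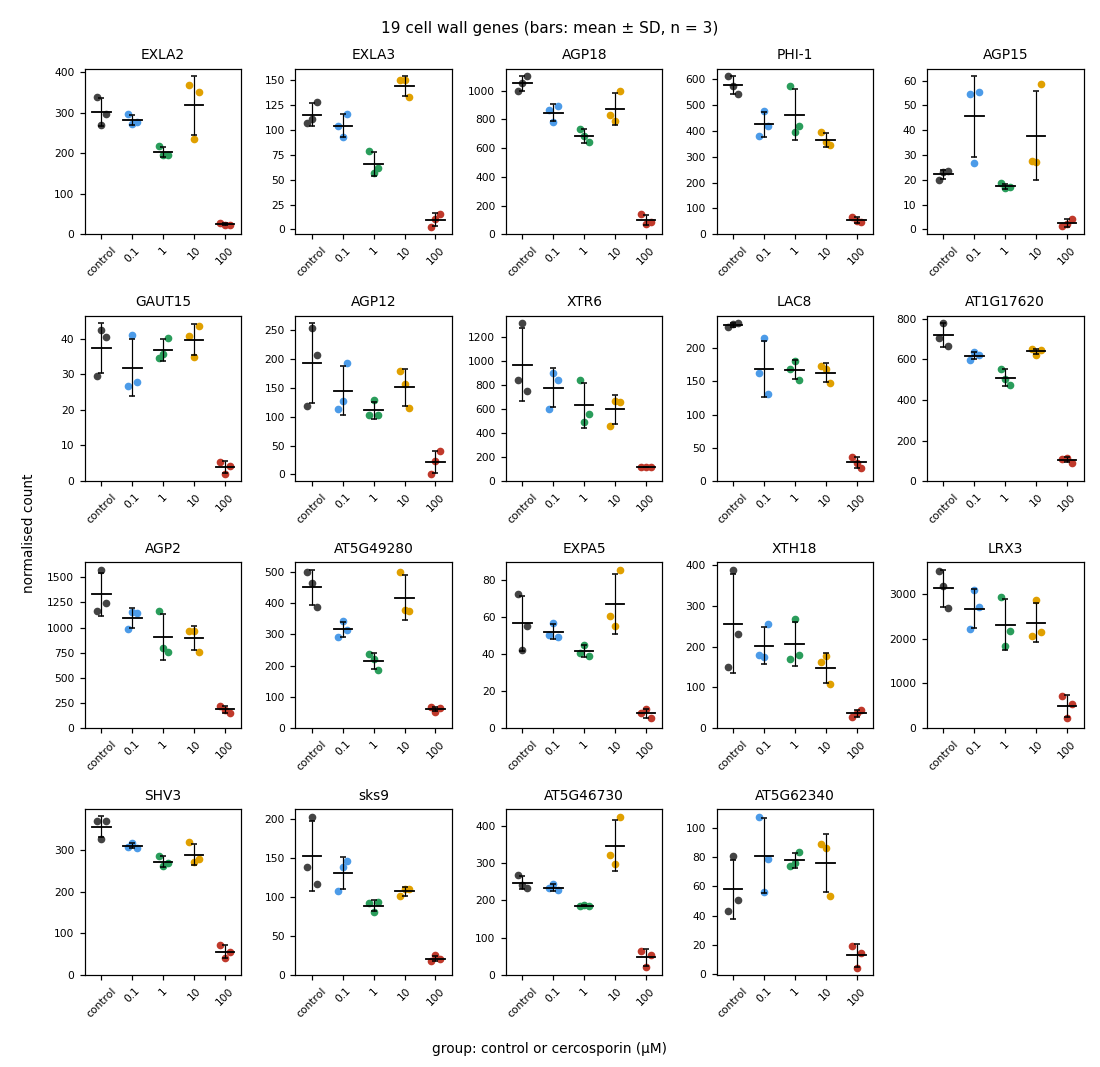
Normalised counts of the 19 cell wall genes by group, with 1 point per library, the mean as a line and the SD (n = 3) as a bar; each panel has its own axis. Every 100 µM point lies below all other points of its panel, and 1 µM has the lowest mean of the remaining groups in 12 of the 19 panels, EXLA2, EXLA3, AGP18 and AT5G49280 among them.

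Of the stress and defence genes, the dehydrin ERD10, known from drought and cold, had the largest normalised counts of the set, not scaled for length: 6694, 6216 and 6719 in the controls, 6181, 5528 and 5895 at 0.1 µM, 4279, 4117 and 4629 at 1 µM, 6829, 6002 and 7926 at 10 µM, and 886, 1161 and 1119 at 100 µM. The heavy-metal-binding domain gene AT1G51090 had 485, 414 and 558 in the controls, 340.4, 331 and 311 at 0.1 µM, 189, 268 and 276 at 1 µM, 476, 354 and 395 at 10 µM, and 49.3, 35.6 and 30.6 at 100 µM. The thaumatin family gene AT4G36010 had 198, 166 and 188 in the controls, 153, 153 and 175 at 0.1 µM, 155, 126 and 123 at 1 µM, 193, 178 and 209 at 10 µM, and 36.99, 18.9 and 32.7 at 100 µM. All 1 µM libraries of these 3 genes were below all their controls. The DNAJ protein gene AT2G21510, at a mean of 21.4 over the 12 libraries, was the fourth.

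The genes of metabolism and transport had ratios between 5.49 and 15.4. The anion channel gene SLAH3 had normalised counts of 191, 199.5 and 139 in the controls, 119.9, 192 and 108 at 0.1 µM, 136, 131 and 133 at 1 µM, 95.8, 140.0 and 87.3 at 10 µM, and 30.1, 14.67 and 14.9 at 100 µM. The pyruvate decarboxylase gene AT4G33070, of fermentation, had 15.2, 65.3 and 33.7 in the controls, 39.98, 102 and 25.3 at 0.1 µM, 38.3, 66.5 and 82.9 at 1 µM, 61.7, 67.8 and 40.2 at 10 µM, and 2.74, 4.19 and 1.42 at 100 µM. AT1G78280, of a glycosyltransferase family, had 45.6, 87.1 and 57.3 in the controls, 29.1, 26.9 and 21.4 at 0.1 µM, 46.9, 45.1 and 49.4 at 1 µM, 35.4, 41.7 and 41.6 at 10 µM, and 6.85, 4.19 and 7.11 at 100 µM. Values of AT4G33070 varied within each group other than 100 µM, and none of the 6 genes in the class had its lowest mean of the other 4 groups at 1 µM. PAP28, a purple acid phosphatase gene, had 0.951, 0 and 338 in the controls, 0, 0 and 0 at 0.1 µM, 0, 4.75 and 0.658 at 1 µM, 0, 0 and 0 at 10 µM, and 0, 0 and 0 at 100 µM. A single library, control replicate 3, thus carried the level that put PAP28 in the set; it was too rarely detected to be tested by edgeR, and its 0 counts at 100 µM do not set it apart from 0.1 or 10 µM. CYP71A13, of camalexin synthesis, and the desaturase gene AT1G06360 completed the class. CYP71A13 shares 91.4% of an aligned 500 bases at its 3′ end with CYP71A12; the pair summed gave a ratio of 1.34, so the drop of CYP71A13 is uncertain where reads can be assigned to either copy.

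Among the 3 ribosome and cytoskeleton genes, the actin gene ACT11 had normalised counts of 22.8, 20.6 and 22.5 in the controls, 26.04, 15.03 and 25.3 at 0.1 µM, 13.6, 19 and 24.4 at 1 µM, 14.4, 22.4 and 24.7 at 10 µM, and 1.37, 0 and 0 at 100 µM. The L41-type ribosomal protein gene AT1G56045 had 164, 134 and 171 in the controls, 99.3, 142 and 144 at 0.1 µM, 184, 289.8 and 139.5 at 1 µM, 129.9, 69.05 and 69.5 at 10 µM, and 16.4, 20.95 and 4.27 at 100 µM. The L36a gene AT4G14320 had 14.3, 76.2 and 34.8 in the controls, 14.5, 19.8 and 71.3 at 0.1 µM, 20.98, 68.9 and 41.5 at 1 µM, 69.5, 40.4 and 3.20 at 10 µM, and 1.37, 2.095 and 5.69 at 100 µM. ACT11 was low everywhere, and AT4G14320 overlapped because 10 µM replicate 3 was as low as the 100 µM libraries. AT1G56045 aligns over 80 to 82 bases near its 3′ end with related genes, 3 of them in the table. Summed with AT3G12965 (93.8% identity), which stood at 193.7 over the 12 libraries and 208 at 100 µM, its ratio was 1.52; summed with AT3G08520 it was 9.38 and with AT3G56020 it was 8.18. Where reads can be assigned to either gene, the drop of AT1G56045 is uncertain.

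Of the genes with no known role, AT5G62280 had normalised counts of 571, 236 and 461 in the controls, 818, 384 and 509 at 0.1 µM, 571, 473 and 482 at 1 µM, 909, 505 and 812 at 10 µM, and 160.3, 71.2 and 63.99 at 100 µM. AT4G35320 had 148, 102 and 128 in the controls, 123, 136 and 119 at 0.1 µM, 121, 76.01 and 89.5 at 1 µM, 105, 90.2 and 156 at 10 µM, and 24.7, 8.38 and 9.95 at 100 µM, and AT5G66580 had 56.1, 36.3 and 43.8 in the controls, 89.04, 41.1 and 58.6 at 0.1 µM, 72.8, 64.1 and 60.6 at 1 µM, 85.3, 62.8 and 60.8 at 10 µM, and 15.1, 8.38 and 6.40 at 100 µM. AT2G07870, a locus with no product name and the largest ratio, had 0, 53.2 and 43.8 in the controls, 42.4, 0 and 0 at 0.1 µM, 37.02, 169 and 0 at 1 µM, 44.6, 4.98 and 157 at 10 µM, and 0, 0 and 0 at 100 µM. It had 0 counts in 4 of the 12 other libraries too and scattered in the rest, so that the mean over the 12 is at least 40.04-fold above the floor of 3 counts over the 100 µM group only as an average of very unequal libraries. AT1G78230 was the fifth. The 3′ ends of 9 members, among them AT1G22810, RRTF1 and ERF105, lie inside a gene on the opposite strand; whether counting used strand is not given, so reads of the partners cannot be told apart there.

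In the edgeR fit over all 15 libraries, 61 of the 62 genes passed the filter on low counts and were tested among 10374 genes. At 100 µM against the controls, the contrast that chose them, 60 passed the threshold as lower, where 14.6% of all genes tested were lower and 18.1% higher; the exception was AT2G07870, and nothing is read from this count. Their median log2 difference was −3.14. Comparisons without 100 µM were not used by the rule, which averaged those 12 libraries, and are tested below with Benjamini-Hochberg adjustment over all 10374 genes.

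Most members had lower estimates at 1 µM than in the controls. The edgeR test called 6 members lower and 0 higher, against 0.135% of all genes called lower. At an unadjusted p under 0.05, 32 members were lower and 0 higher, against 3.57% of all genes lower. The estimate was below 0 for 53 of the 61 genes, and for 49.7% of all genes; the members' median was −0.58 on the log2 scale and that of all genes 0.00. AT5G49280 fell by 1.07 ± 0.17 (SE; adjusted p = 0.0119), AT2G35290 by 1.06 ± 0.17 (adjusted p = 0.0137) and LOX3 by 1.00 ± 0.18 (adjusted p = 0.0327). DDF1 fell by 1.57 ± 0.31 (adjusted p = 0.0488), AT1G51090 by 0.98 ± 0.19 (adjusted p = 0.0488) and AT1G22810 by 1.73 ± 0.34 (adjusted p = 0.0491). The count was 0 without control replicate 2 or without 1 µM replicate 3, and 15 without 100 µM replicate 1. It was 1 or 2 without any other single library of the controls, 0.1 or 10 µM or without 1 µM replicate 1, so how many members pass depends on single libraries.

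By the calls at 1 µM against the controls, the lowering was not confined to 100 µM for every member. Those calls depend on single libraries, and toxin and light regime are joined in that comparison. Leaving out 100 µM, the lowest group mean was at 1 µM for 41 of the 62 genes, or 66.1%, as it was for 32.7% of the 6864 genes above the minimum. By class this held for 9 of 10 AP2/ERF factors, 11 of 13 other regulators, 12 of 19 cell wall genes, 4 of 4 stress genes, 2 of 2 jasmonate genes, 0 of 6 genes of metabolism and transport, 1 of 3 of the ribosome or cytoskeleton and 2 of 5 with no known role. The highest mean was in the controls for 32 members (51.6%, against 23.8%) and at 10 µM for 22 (35.5%, against 27.6%). Neighbouring groups in these orders often overlapped, as the library values above show.

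At 0.1 µM against the controls edgeR called 0 members, as it called 0% of all genes, and DESeq2 called 1. At an unadjusted p under 0.05, 18 members were lower and 1 higher, against 3.09% of all genes lower, and the members' median log2 difference was −0.26. Between 1 and 0.1 µM edgeR again called 0 members and 0% of all genes, and DESeq2 called 1. There 17 members were lower and 1 higher at an unadjusted p under 0.05, against 2.9% of all genes lower. Estimates at 0.1 µM against the controls were below 0 for 50 of the 61 members and for 50.1% of all genes; the 10 AP2/ERF factors, of which 0 were called, lay between −0.85 and −0.10.

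Most members had higher estimates at 10 than at 1 µM, with 14 of 61 below 0 against 51.2% of all genes. Here edgeR called 9 members higher and 0 lower, where 0.569% of all genes were called higher. At an unadjusted p under 0.05, 33 members were higher and 1 lower, against 5.75% of all genes higher. ERF105 was higher by 2.45 ± 0.23 on the log2 scale (SE; adjusted p = 3.31e-05), AT1G22810 by 2.18 ± 0.33 (adjusted p = 0.00438) and ERF13 by 1.95 ± 0.30 (adjusted p = 0.00438). Smaller rises were those of AT5G49280 at 0.96 ± 0.17 (adjusted p = 0.00879), EXLA3 at 1.12 ± 0.24 (adjusted p = 0.034), LOX3 at 0.81 ± 0.18 (adjusted p = 0.0404) and AT2G35290 at 0.75 ± 0.17 (adjusted p = 0.048). ERD10 rose by 0.67 ± 0.13 (adjusted p = 0.0211) and AT2G32200 by 1.18 ± 0.24 (adjusted p = 0.0248). The count of 9 became 2 without 1 µM replicate 3, 4 without 1 µM replicate 1 or 10 µM replicate 1 or 3, 5 without 1 µM replicate 2 and 20 without 100 µM replicate 1. By class the median log2 difference was 1.06 in the AP2/ERF factors, 0.70 in the other regulators, 0.26 in the cell wall genes and −0.25 in the genes of metabolism and transport.

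Against the controls, edgeR called ERF105 alone among the members at 10 µM, higher by 1.60 ± 0.21 (adjusted p = 0.00635). Of all genes, 0.00964% were called higher there. At an unadjusted p under 0.05, 10 members were lower and 5 higher, against 5.4% of all genes in either direction. Against 0.1 µM, ERF105 was again the called member, higher by 1.72 ± 0.21 (adjusted p = 0.00189), with 0.0193% of all genes called higher. Unadjusted, 13 members were higher and 0 lower, against 3.37% of all genes higher; ERF13, at 1.38 ± 0.27, had an adjusted p of 0.058. The call of ERF105 against the controls was lost without control replicate 2 or 10 µM replicate 3, and the count against 0.1 µM was 2 without 10 µM replicate 1 or 100 µM replicate 1 or 2. These comparisons share libraries, so they do not count as separate evidence. The sample codes carry the digit 8 for all 10 µM libraries and for control replicate 2. They carry 7 for all those of 0.1 and 1 µM and for the other controls. What the digit stands for is not given. With the digit as a term in a fit without 100 µM, ERF105 kept its call at 10 against 1 µM (2.45, adjusted p = 0.0228) and lost those against the controls (1.61, adjusted p = 0.107) and against 0.1 µM (1.74, adjusted p = 0.0945). The other 8 members called at 10 against 1 µM lost their calls in that fit, with estimates of the same sign. For 10 against 1 µM, the fit with the digit also called a member that the fit of all 15 libraries had not. All 100 µM libraries carry a digit of their own, so dose and digit cannot be told apart for them.

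**Figure D5:**
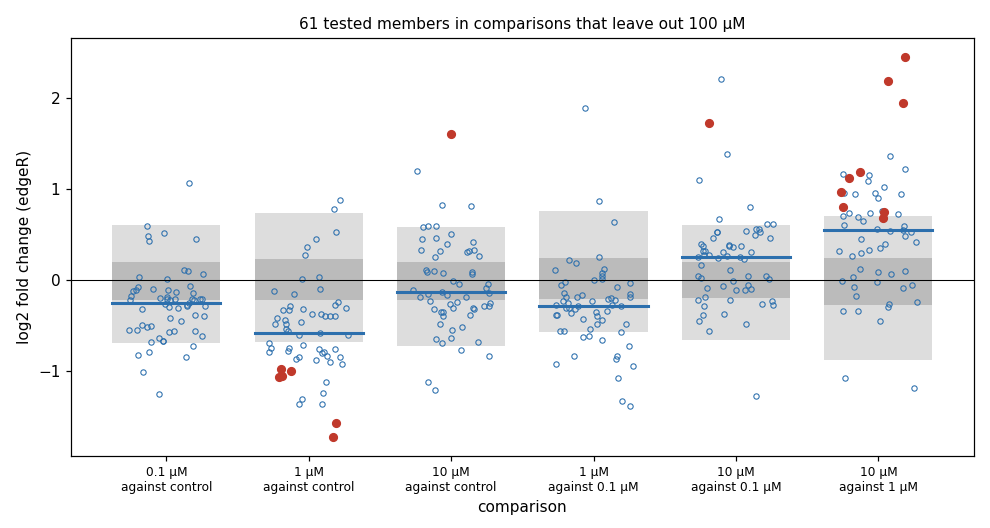
Points are the log2 fold changes (edgeR) of the 61 tested members in the 6 comparisons that leave out 100 µM, filled red where called and open blue where not; blue lines are the members' medians, and grey bands hold the middle 50% (dark) and 90% (light) of all 10374 genes. The members' median lies outside the dark band in every comparison except 10 µM against control. It is largest in size at −0.58 for 1 µM against control and 0.54 for 10 against 1 µM. The highest red point is ERF105 at 2.45.

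Lists of related genes were chosen with earlier results in view, and at 100 µM against the controls they are given without the members, whose drop was the selection itself. Among all genes tested there, 14.6% were lower and 18.1% higher by edgeR. The list of DREB factors, which does not hold the members AT4G32800 and AT1G64380, had 4 tested genes beside 4 members. Of those 4 tested genes, AT1G33760 at −2.99 and TNY at −1.86 on the log2 scale were lower and 0 were higher. The member ERF53, whose branch was not assigned, was left out of both the DREB and the ERF list. Of the 20 other genes of the ERF list, 3 were lower and 5 higher, with ERF1, of ethylene and jasmonate defence, higher by 2.99 and ORA59 by 1.87. Of the 26 jasmonate genes other than LOX3 and LOX4, 9 were lower and 5 higher; JAZ5, a repressor, stood at −2.78 and OPR3, a synthesis enzyme, at −1.91, while JAZ3 was at 2.37. The 20 listed expansin and xyloglucan endotransglucosylase genes that are not members had 4 in each direction. EXLA1 at −1.81 was among the lower, and XTH6 at 2.79 and XTH24 at 2.49 were among the higher. That list does not hold the member EXLA3. Beside IAA19, 3 of 8 auxin genes were lower and 0 higher. Beside ERD10, 3 of 7 dehydration and cold genes were lower and 2 higher, COR15A at 2.68 among the higher, and beside CAM9, 1 of 8 touch and calcium genes was lower and 3 were higher.

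The lists of WRKY factors, zinc finger regulators, ubiquitin ligases, phosphatases and MAP kinases held no member. WRKY factors had 3 of 14 lower and 4 higher, with WRKY18 at −2.48 and WRKY70 at 4.21. Zinc finger regulators had 4 of 13 lower and 1 higher, and the PUB and ATL ubiquitin ligases 3 of 8 lower and 1 higher, PUB19 at −3.64 and PUB22 at 4.05. The abscisic acid phosphatases had 2 of 6 lower and 0 higher, and the MAP kinase list 1 of 6 in each direction. Most of these lists are too short to be read against the shares of all genes. Between 10 and 1 µM, where the rule played no part and 0.569% of all genes were higher, 7 of the 28 jasmonate genes were higher and 0 lower, LOX3 among them with the synthesis genes AOS at 1.18, AOC2 at 1.15 and AOC3 at 1.34. At 1 µM against the controls, where 0.135% of all genes were lower, 5 of the 28 were lower and 0 higher. The lists were chosen with earlier results of these data known, so the list counts are a description only. Of the ERF list 4 of 23 were higher at 10 than at 1 µM: ERF105, ERF13, ERF4 at 0.64 and ABR1 at 1.02. The 10 and 1 µM libraries also differ in the digit of the sample code. LOX3 and ERF13 lost their calls in the fit with that digit, and the list genes that are not members were not examined in it.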

How the data were processed

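The table holds 15 libraries and 14190 genes. The submitters' processing notes name bcl2fastq 2.17.1.14, cutadapt 1.8.3, STAR, HTSeq and DESeq2; build, annotation and use of strand are not given in the sources. Per the file headers, the deposited raw counts were not filtered on unique molecular identifiers, so they include amplification copies. The authors' normalised columns are a signal scale, the counts divided by 1 size factor per library, which supplied the levels here; levels of different genes are not compared per length. Columns belonging to other samples numbered 0.

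The members, the classes and the gene lists were chosen with earlier results of these data known. Differences were tested with edgeR 4.0.16 (R 4.3.3) by TMM, filterByExpr by group and a quasi-likelihood fit of group to all 15 libraries, with Benjamini-Hochberg adjustment over the 10374 genes tested and a threshold of 0.05; the procedure was tested on simulated data. The SE is the absolute log2 fold change divided by the square root of F. Genes named with library values were the 12 with the largest ratio, the 3 with the highest level in each class of 3 or more, and all members called; LOX4 was added after its values were seen, as the only other member of its class. Members not in the filter, PAP28 alone, have no test. Alternatives were DESeq2 1.42.0, upper quartile factors, no filter, thinned libraries, a fit of the 12 libraries other than 100 µM, the digit of the sample code, a replicate block and each library left out; for the selection, other cut-offs, CPM and controls alone.

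Gene structure and the 300 bases upstream came from RefSeq's TAIR10.1 annotation, which was matched by identifier; 14103 identifiers of the table have an entry. Copies were defined with blastn 2.17.0 by a minimum alignment of 75 bases and 90% identity between the last 500 bases of transcripts.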

Additional observations from a re-analysis of the deposited data

How the results depend on the processing

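The 62 members became 110 at a ratio of 4 and 20 at a ratio of 8, 79 on CPM (62 shared), 80 against the controls alone (58 shared) and 50 at a mean of 40 or more. Leaving out 1 library of 100 µM gave 67 to 89. Members called at 1 µM against the controls numbered 6, against 3 with upper quartile factors, 3 with thinned libraries, 14 in the fit without 100 µM and 14 with DESeq2, and 0 to 15 when 1 library was left out. At 10 against 1 µM the 9 became 5 with thinned libraries, 21 without 100 µM, 2 with the code digit and 16 with DESeq2, and 2 to 20 without 1 library, with 2 lacking 1 µM replicate 3 and 20 lacking 100 µM replicate 1. At 10 against 0.1 µM the 1 member became 2 with upper quartile factors, no filter, the fit without 100 µM or DESeq2 and 0 with the code digit, and 1 to 2 without 1 library. At 10 µM against the controls the 1 became 0 with the code digit and 0 to 1 without 1 library; it was 0 without control replicate 2 or 10 µM replicate 3. At 0.1 µM against the controls the 0 became 1 with DESeq2, and at 1 against 0.1 µM it became 1 with DESeq2, with the fit without 100 µM or with the code digit. The causes were not tested.

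With the replicate number as a block, 3 members were called at 1 µM against the controls and 2 at 10 against 0.1 µM. Deviations of same-numbered libraries correlated between −0.14 and 0.27, with 6 of 30 pairs over 0.1 and 8 of 15 libraries closest to their own number. No random numbering was set beside these values, so they do not settle whether the numbers pair the samples.

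No call of a named gene reversed in the 22 alternatives. ERF105 at 10 against 1 µM was called in all 22. At 1 µM against the controls AT5G49280 lost its call in 3 and AT2G35290 in 4, but LOX3 in 11, DDF1 in 14, AT1G51090 in 15 and AT1G22810 in 16. At 10 against 1 µM, ERF13 lost it in 1, AT1G22810 in 2, AT5G49280 in 3, ERD10 in 6, AT2G32200 in 7, EXLA3 in 10, LOX3 in 11 and AT2G35290 in 15. Depth limits the 100 µM levels, where 10 members had 0 counts in at least 1 library.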
